A study of Homo sapiens with 4 samples.

Results

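The transcripts of 10 genes for splicing factors were compared in H1299 cells treated with 5 μM HgCl2 for 48 h and in control cells treated with 0.6% EtOH for 48 h. The genes are the SR protein genes SRSF1 to SRSF7, SRSF11, and the transformer-2 homologs TRA2A and TRA2B. All 115 of their transcripts among the 227368 listed in the count table were taken by gene symbol and sorted by annotated class, and the protein-coding transcripts of each gene were set beside its retained-intron and nonsense-mediated decay transcripts, together called the decay class here. Of the 115, 40 are annotated as protein coding, 36 as retained intron, 22 as targets of nonsense-mediated decay and 17 as transcripts of a coding gene without a defined coding sequence.

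H1299 cells come from a human non-small-cell lung carcinoma and grow as an established line. Poly-A RNA was sequenced, and each group has 2 columns of counts, labelled as replicates 1 and 2. EtOH was the solvent control, and no HgCl2 was given to it in the study's methods, although the treatment text of the labels gives 5 μM for all 4 samples. Total counts were 5051958 and 5053120 in EtOH and 4722772 and 4720978 in HgCl2. The columns of a group differed by less than sampling noise, with 0.505 times the variance that independent counting gives in EtOH and 0.516 times in HgCl2, against 31.9 times between the groups. Each group was therefore counted as 1 sample, and HgCl2 against EtOH has no replicate check and no p-value. Where the text says that columns of the groups overlap or lie apart, this describes the counts and measures no spread between samples. All intervals are exact 95% intervals from the mean counts of the 2 columns, and they cover counting error only. They are Clopper-Pearson intervals, except for odds ratios, where they are exact conditional ones. Of the markers checked, VIM, the intermediate filament of mesenchymal and many cultured cells, was counted at 624 in EtOH and at 506 in HgCl2 on average, and KRT18 at 23.5 and 24.5. KRT8, the keratin that pairs with KRT18, had 55.5 and 4. The leukocyte markers PTPRC and CD3E and the liver marker ALB were at 0, and the endothelial marker PECAM1 was at 4.5 and 1.5.

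SR proteins bind exons through RNA recognition motifs and recruit the spliceosome through domains rich in arginine and serine. Many of their genes hold a poison exon, a conserved alternative exon with an early stop codon, and transcripts that include it are broken down by nonsense-mediated decay, the pathway that removes messages whose stop codon lies upstream of a later exon junction. Several SR and TRA2 proteins promote inclusion of the poison exon in their own message and so limit their own level. Retained-intron transcripts of these genes are often held in the nucleus, and introns beside poison exons are among those retained.

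The exons that the annotation gives to decay transcripts and not to the canonical transcript show where the reading frame ends. For 8 of them the bases from the start of the exon to the first stop codon in frame are given, 5′ to 3′ on the strand of the gene, with the stop codon in capitals and coordinates on GRCh38.
SRSF3-203 chr6:36599821-36599854 (+): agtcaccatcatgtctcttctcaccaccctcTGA
SRSF4-205 chr1:29166009-29166064 (-): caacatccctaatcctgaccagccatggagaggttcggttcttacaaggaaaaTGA
SRSF6-202 chr20:43459153-43459304 (+): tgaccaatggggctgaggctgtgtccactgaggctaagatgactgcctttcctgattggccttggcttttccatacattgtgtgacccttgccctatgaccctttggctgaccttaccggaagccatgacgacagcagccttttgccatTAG
SRSF7-204 chr2:38749319-38749346 (-): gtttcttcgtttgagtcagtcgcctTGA
SRSF11-213 chr1:70231095-70231117 (+): ttcttttccctggttcagccTGA
SRSF11-212 chr1:70231859-70231908 (+): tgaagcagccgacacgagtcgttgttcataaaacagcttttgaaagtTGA
TRA2A-211 chr7:23522289-23522432 (-): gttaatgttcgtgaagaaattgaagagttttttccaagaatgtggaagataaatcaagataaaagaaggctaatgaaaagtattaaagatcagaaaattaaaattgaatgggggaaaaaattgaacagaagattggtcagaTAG
TRA2B-205 chr3:185931772-185931852 (-): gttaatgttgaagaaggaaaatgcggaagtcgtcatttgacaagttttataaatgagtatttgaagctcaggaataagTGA
The stop lies 34 bases into the exon of SRSF3, 81 bases into that of TRA2B and 144 bases into that of TRA2A. The exons of TRA2A and TRA2B both open with the bases gttaatgtt.

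An exon of a decay transcript that does not overlap the canonical transcript is called decay-only here, although transcripts of other classes may cover it. Several of the counted retained-intron transcripts include a decay-only exon together with intron beside it. Other listed transcripts also cover the exon, so the bases that such a transcript alone covers lie in the intron. The following 60 bases adjoin a decay-only exon of SRSF3, SRSF11 or TRA2B and are covered only by the retained-intron transcript named, with the AG before the exon or the GT after it in capitals.
SRSF3-207 chr6:36599761-36599820 (+): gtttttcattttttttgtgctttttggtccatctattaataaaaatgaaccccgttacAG
SRSF11-214 chr1:70231035-70231094 (+): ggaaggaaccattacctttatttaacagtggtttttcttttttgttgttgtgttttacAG
SRSF11-214 chr1:70231799-70231858 (+): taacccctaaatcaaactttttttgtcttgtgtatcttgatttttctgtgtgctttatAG
TRA2B-211 chr3:185931517-185931576 (-): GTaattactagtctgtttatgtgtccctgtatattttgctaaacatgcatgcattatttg
Other retained introns lie away from any decay-only exon. For 3 of these, the last 12 exon bases and the intron up to its first stop codon in frame are given, with the stop in capitals.
SRSF5-218 chr14:69768271-69768294 (+): tttggttttgtggtaagtattTAG
TRA2A-207 chr7:23505738-23505757 (-): cctacagcccaagtatgTGA
TRA2B-208 chr3:185923733-185923807 (-): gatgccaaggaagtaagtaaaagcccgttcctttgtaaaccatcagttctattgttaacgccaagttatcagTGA
The frame closes 12 bases into intron 2 of SRSF5, 8 bases into intron 7 of TRA2A and 63 bases into intron 4 of TRA2B.

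Counts fell almost only on transcripts with bases of their own. No base of their own, meaning a base that no other listed transcript covers, was found in 66 of the 115 transcripts, among them 17 of the 22 decay transcripts, 27 of the 40 coding and 13 of the 36 retained-intron transcripts. A count above 0 was found for 40 of the 115, which are 21 retained-intron transcripts, 10 coding, 7 without a defined coding sequence and 2 decay transcripts. Of these 40, SRSF11-201, SRSF11-202 and SRSF5-207 have no base of their own. The other 75 were at 0 in all 4 columns, which does not show that they were absent from the cells, and so the level of the poison exons themselves was hardly measured. Values are given per transcript and are not the level of a gene.

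Within these limits, most counted retained-intron transcripts of SRSF5, SRSF7, SRSF11, TRA2A and TRA2B had higher counts in HgCl2, with SRSF5-210 lower. Counted retained-intron transcripts of the other genes did not. The genes are grouped here by these values, with no test. SRSF7-211 and SRSF11-214 are the only counted ones of their genes, and TRA2A-206 had a mean of 4 in both groups. SRSF3-207 had mean counts of 121.5 and 121 in EtOH and HgCl2, SRSF4-207 109.5 and 76, SRSF3-205 10 and 7.5 and SRSF1-202 3.5 and 3. Among retained-intron transcripts of all genes that passed the filter described next, 22.5% were at least 2-fold higher in HgCl2 and 22.4% lower. In bulk RNA, more cells with a transcript and more of it per cell cannot be told apart. Of the coding transcripts that passed the filter, TRA2B-204 alone differed by 2-fold, and it was lower. Summed over the 10 genes, retained-intron transcripts had 1957 counts in EtOH and 3743.5 in HgCl2, of which SRSF11-214 alone had 773 and 1750. Coding transcripts had 8196 and 9695.5, of which SRSF6-201 alone had 4873.5 and 6087. Decay transcripts had 12 and 2.5. Transcripts without a defined coding sequence had 390.5 and 910.5, nearly all from SRSF11.

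Ratios of mean counts were formed on the scale of TMM, which trims extreme transcripts before it sets the libraries level, for transcripts whose mean FPKM passed 1 in EtOH or in HgCl2. This left 30 of the 115 transcripts, and the other 85 have no ratio in the counts that follow. A transcript that passed through one group alone had to differ, which holds for the transcripts of all genes as well. A transcript was counted as higher or lower where the ratio was at least 2-fold, with a group at or under 3 counts set to 3 counts. By this rule 12 transcripts were higher in HgCl2, against 16.9% of all 17547 transcripts that passed the filter, and 3 were lower, against 22.1%. Retained-intron transcripts make up 8 of the 12, out of 17 that passed the filter, beside 22.5% higher and 22.4% lower among retained-intron transcripts of all genes. The other 4 of the 12 have no defined coding sequence, out of 5, beside 19.9% higher and 23.2% lower for that class. The 3 lower ones are the retained-intron transcript SRSF5-210, the coding transcript TRA2B-204 and the decay transcript SRSF7-207. Of the 7 coding transcripts that passed the filter, 0 were higher and 1 was lower, beside 12.7% and 18% of all coding transcripts, and the single decay transcript that passed stands beside 23.8% higher and 25.5% lower.

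Low counts widen these ratios, so the same was counted where the mean over the 4 columns was at least 30. There, 9 of 21 transcripts were at least 2-fold higher and 0 lower, beside 15.5% and 9.64% of all transcripts at that level. By class, 6 of 11 retained-intron transcripts of these genes were at least 2-fold higher and 0 lower, against 32.4% higher and 6.69% lower among 1061 retained-intron transcripts of all genes. Their median log2 ratio was 1.08, with a range from -0.38 to 3.25, beside a median of 0.59 for the 1061. Of the 6 higher ones, SRSF5-207 and TRA2B-206 stayed under 30 in EtOH, at means of 7.5 and 9. Both reached the level through HgCl2 alone and so had to be higher, and the median and range include them. The top of the range is SRSF5-207, which has no base of its own. The same selection applies to the 1061. Of the 6 coding transcripts at that level 0 were 2-fold higher or lower, against 9.47% and 8.69% of 4202, and their median log2 ratio was 0.31 beside 0.14. Of the 4 without a defined coding sequence 3 were higher and 0 lower, beside 28% and 10.4%. Among these 3, SRSF11-215 stayed under 30 in EtOH, at a mean of 24.5, and so had to be higher as well. Retained-intron transcripts of all genes were thus more often higher than lower at this level of counts, but not over all that passed the filter, and the ratios of these genes are read beside both.

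**Figure D1:**
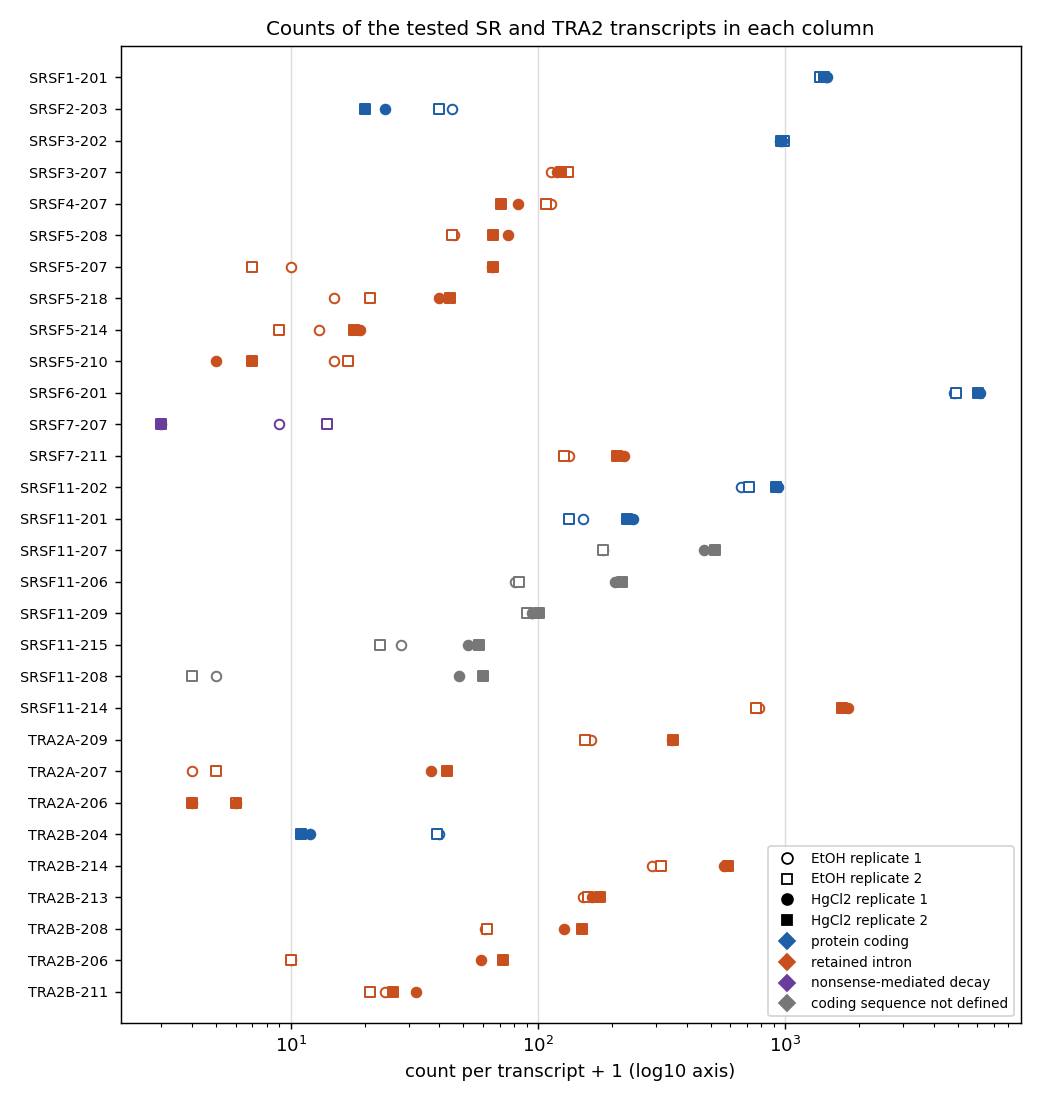
Counts of the 30 SR and TRA2 transcripts that passed the filter, plus 1, on a log10 axis, with open symbols for the 2 EtOH columns, filled symbols for the 2 HgCl2 columns and colours for the annotated class. The columns of a group lie close together for the well-counted transcripts, and the filled symbols of SRSF11-214, TRA2A-209 and TRA2B-214 lie to the right of the open ones.

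Among the founding SR proteins, SRSF1, which acts in constitutive and alternative splicing, was measured by its canonical transcript SRSF1-201 (ENST00000258962, chr17:58000919-58007246, minus strand), with 1477 and 1388 counts in EtOH and 1458 and 1436 in HgCl2. The groups overlap. The log2 ratio was 0.16 (interval 0.05 to 0.26). All 2441 bases that only SRSF1-201 covers in the annotation used here lie in its 3′ UTR. The single retained-intron transcript, SRSF1-202, had 3 or 4 counts in every column. SRSF1 also overlaps another annotated coding gene on its strand.

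SRSF2, also known as SC35, gave few counts. Its coding transcript SRSF2-203 had 44 and 39 in EtOH and 23 and 19 in HgCl2, with a log2 ratio of -0.84 (-1.67 to -0.05) over only 2 bases of its own. The HgCl2 columns lie below the EtOH columns, but the ratio stays under 2-fold. None of its 4 retained-intron and 2 decay transcripts had a count, and MFSD11 overlaps it on the opposite strand. Whether the counting used strand is not given in the sources used here.

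SRSF3, the smallest SR protein, and its decay class had nearly equal counts in both groups. The canonical SRSF3-202 (ENST00000373715, chr6:36594362-36605600, plus strand) had 953 and 986 in EtOH and 971 and 959 in HgCl2, for a log2 ratio of 0.14 (0.01 to 0.27). SRSF3-207 (ENST00000620389), which holds 383 bases of intron 3 directly before the poison exon, had 112 and 131 in EtOH and 119 and 123 in HgCl2, with the HgCl2 values between the EtOH values. Its log2 ratio was also 0.14, with an interval from -0.24 to 0.51. Per 100 bases of their own, the 2 transcripts had 34.4 and 31.7 counts in EtOH and 34.2 and 31.6 in HgCl2.

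SRSF4 and SRSF6, SR proteins with paired RNA recognition motifs, differed in what could be counted. SRSF4 was seen almost only through the retained-intron transcript SRSF4-207 (ENST00000634348, chr1:29147853-29173494, minus strand), with 112 and 107 in EtOH and 82 and 70 in HgCl2. Both HgCl2 columns are lower, and the log2 ratio of -0.38 has an interval from -0.83 to 0.05. It is the only retained-intron transcript of the 11 well-counted ones with a ratio below 0. The coding SRSF4-201 had 7, 4, 3 and 2 counts in the same order of columns. SRSF6 was the most counted of the genes, through its canonical transcript SRSF6-201 (ENST00000244020, chr20:43457896-43464243, plus strand), with 4827 and 4920 in EtOH and 6126 and 6048 in HgCl2. The columns of the groups lie apart, and the log2 ratio of 0.46 (0.41 to 0.52) is a difference of 1.38-fold. No base of its poison-exon transcript SRSF6-202 was counted, and another annotated gene overlaps SRSF6 on its strand.

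SRSF5 had 0.5 coding counts in each group, so only its retained introns were measured. SRSF5-218 (ENST00000557435, chr14:69767116-69768619, plus strand) keeps the whole of intron 2, 321 bases, and had 14 and 20 counts in EtOH and 39 and 43 in HgCl2. The log2 ratio was 1.41 (0.57 to 2.32). SRSF5-208, with 114 own bases in intron 6, had 45 and 44 in EtOH and 75 and 65 in HgCl2, for a log2 ratio of 0.80 (0.23 to 1.37). In both the HgCl2 columns lie above the EtOH columns. SRSF5-207, which keeps 2 introns and has no base of its own, had 9 and 6 in EtOH and 64 and 65 in HgCl2, a log2 ratio of 3.25 (2.15 to 4.57). By contrast SRSF5-210, with bases in intron 1, had 14 and 16 in EtOH and 4 and 6 in HgCl2, a log2 ratio of -1.44 whose interval of -3.26 to 0.09 includes 0.

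SRSF7, also known as 9G8 and paired with SRSF3 in mRNA export, likewise had no coding count. SRSF7-211 (ENST00000477635, chr2:38744895-38747044, minus strand) holds 297 own bases of intron 5, 17 bases from the decay-only exon of SRSF7-207. It had 133 and 127 counts in EtOH and 223 and 208 in HgCl2, a log2 ratio of 0.87 (0.55 to 1.20). SRSF7-207 itself, the only decay transcript among the 30, has its own bases in that exon and had 8 and 13 in EtOH and 2 in both HgCl2 columns. With HgCl2 set to 3 counts SRSF7-207 was 3.17-fold lower, and the interval of its log2 ratio ran from -5.47 to -0.04. The counted part of the intron and the exon within the same intron therefore lay on opposite sides of the controls, from few counts for the exon.

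**Figure D2:**
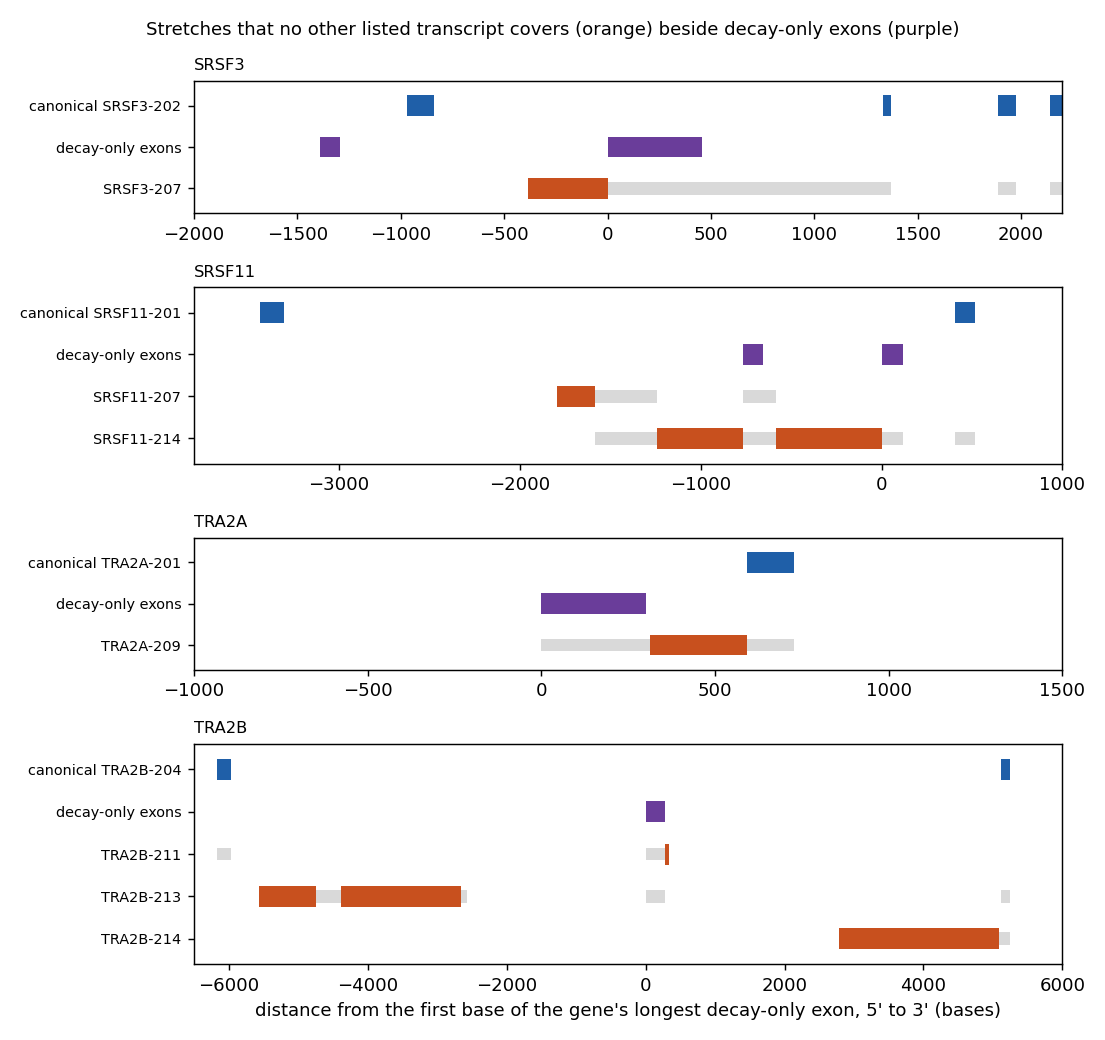
Maps of the introns that hold decay-only exons in SRSF3, SRSF11, TRA2A and TRA2B, with distance in bases from the start of the longest decay-only exon, 5′ to 3′. Blue boxes are exons of the canonical transcript, and purple boxes are decay-only exons, which lie outside the canonical transcript but may be covered by other classes. Orange boxes are the bases that only the named transcript covers and grey boxes its other bases. The orange stretches of SRSF3-207, SRSF11-214 and TRA2B-211 end or begin at a purple exon.

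SRSF11, a more distant SR protein also called p54, had well-counted transcripts of several classes. The coding SRSF11-202 had 665 and 715 counts in EtOH and 934 and 920 in HgCl2, a log2 ratio of 0.57 (0.43 to 0.71). The canonical SRSF11-201 had 152 and 133 in EtOH and 242 and 228 in HgCl2, with 0.87. Neither of these coding transcripts has a base of its own. The retained-intron transcript SRSF11-214 (ENST00000484162, chr1:70230278-70251997, plus strand) had 785 and 761 in EtOH and 1794 and 1706 in HgCl2. The columns of the groups lie apart in all 3, and the log2 ratio of SRSF11-214 was 1.32 (1.20 to 1.45). Its 1060 own bases lie in intron 2 and run up to the acceptor sites of both decay-only exons shown above.

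Of the SRSF11 transcripts without a defined coding sequence, SRSF11-207 lies in the same intron 2, with 182 counts in both EtOH columns and 470 and 519 in HgCl2, a log2 ratio of 1.59. SRSF11-206, with 1665 own bases in intron 9, had 80 and 83 in EtOH and 205 and 218 in HgCl2, with 1.52. SRSF11-209, also counted in intron 2, had 94 and 89 in EtOH and 94 and 100 in HgCl2 and a log2 ratio of 0.23 (-0.20 to 0.66). Counts of transcripts within intron 2 thus did not differ between the groups by one common factor. SRSF11-208 went from 4 and 3 to 47 and 59, a log2 ratio of 4.06 (2.54 to 6.16), over 33 bases of its own. A long non-coding gene overlaps SRSF11 on the opposite strand.

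TRA2A and TRA2B are sequence-specific activators of exons with GAA-rich enhancers, and each holds a poison exon in its first intron. No coding count was found for TRA2A. TRA2A-209 (ENST00000494255, chr7:23507157-23531981, minus strand), whose 543 own bases in intron 1 come within 11 bases of the decay-only exon, had 163 and 154 counts in EtOH and 349 and 350 in HgCl2. The log2 ratio was 1.28 (1.01 to 1.56). TRA2A-207, which keeps the whole of the 176-base intron 7, had 3 and 4 in EtOH and 36 and 42 in HgCl2, a log2 ratio of 3.62 (2.07 to 5.74). The HgCl2 columns of both lie above the EtOH columns, and TRA2A-206, in intron 5, had between 3 and 5 counts in every column.

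In TRA2B the coding and the retained-intron counts lay in opposite directions. The canonical coding transcript TRA2B-204 (ENST00000453386, chr3:185914558-185938014, minus strand) had 39 and 38 counts in EtOH and 11 and 10 in HgCl2, a log2 ratio of -1.73 (-2.87 to -0.72). Its 2186 own bases lie in its 3′ UTR. TRA2B-214 (ENST00000492417), with 2303 bases of intron 1, had 288 and 315 in EtOH and 566 and 588 in HgCl2, a log2 ratio of 1.08 (0.88 to 1.29). Per 100 bases of their own, the coding transcript had 1.76 counts in EtOH and 0.480 in HgCl2, and TRA2B-214 had 13.1 and 25.1. TRA2B-213, with 2552 bases in another stretch of intron 1, had 152 and 158 in EtOH and 165 and 177 in HgCl2, a log2 ratio of 0.29 (-0.04 to 0.61). TRA2B-208, which keeps the 1669 bases of intron 4, had 60 and 61 in EtOH and 127 and 150 in HgCl2, with 1.34 (0.89 to 1.80). TRA2B-206, with bases in intron 3, had 9 in both EtOH columns and 58 and 71 in HgCl2, with 2.98 (1.97 to 4.18). TRA2B-211, which holds the poison exon and has as its own the 62 bases after it, had 23 and 20 in EtOH and 31 and 25 in HgCl2, with 0.52 (-0.34 to 1.41).

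**Figure D3:**
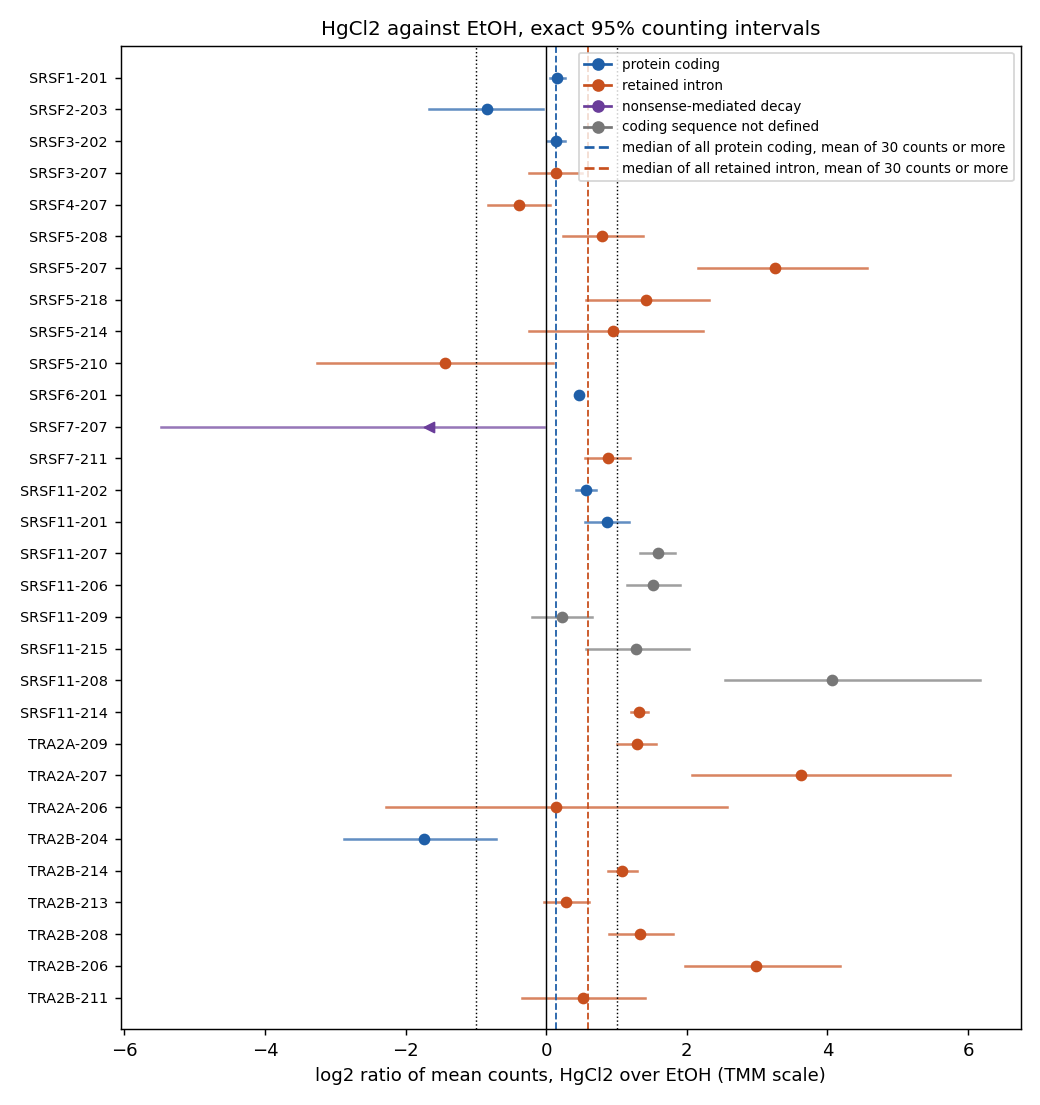
Log2 ratio of mean counts, HgCl2 over EtOH, for the 30 transcripts, with exact 95% counting intervals as bars and the class as colour. Dotted lines mark 2-fold, and dashed lines the medians of all coding (0.14) and all retained-intron transcripts (0.59) whose mean count reached 30. The triangle is SRSF7-207, 3.17-fold lower with HgCl2 set to 3 counts, with an interval that reaches -0.04.

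The share of decay-class counts among the coding and decay-class counts of a gene does not depend on how the libraries are scaled. In SRSF11 it was 48.1% (45.7 to 50.6) in EtOH and 60.1% (58.3 to 61.9) in HgCl2, an odds ratio of 1.62 and a log2 odds ratio of 0.70 (0.52 to 0.88). In TRA2B it was 93.4% (91.1 to 95.3) and 98.9% (98.1 to 99.5), a log2 odds ratio of 2.76 (1.72 to 3.94). In both genes the intervals of the groups do not overlap. The coding counts of SRSF11 fell on SRSF11-202 and SRSF11-201, which have no base of their own, so which reads they hold is not known. SRSF3 had 11.9% (10.1 to 14.0) and 11.8% (9.90 to 13.8), with a log2 odds ratio of -0.03 (-0.42 to 0.35). SRSF4 had 95.4% and 96.8%, and its log2 odds ratio of 1.01 has an interval from -1.52 to 4.38. SRSF1 had 0.244% and 0.207%, and SRSF5 had 99.5% and 99.7% from 0.5 coding counts. SRSF7 and TRA2A were at 100% and SRSF2 and SRSF6 at 0% in both groups, since only one class was counted.

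The share could move in the 6 of the 10 genes with both classes counted. Among these it was higher in HgCl2 in 4 and lower in 2, beside 44.2% higher of 1984 genes with both classes and at least 30 counts in each group. SRSF1, SRSF4 and SRSF5 rest on few counts of one class, and TRA2B rests on 38.5 coding counts in EtOH and 10.5 in HgCl2. The coding counts of TRA2B all fell on TRA2B-204, whose own bases lie in its 3′ UTR. The median change over the 6 was 0.877 percentage points, beside -0.121 over the 1984. Over all 10 genes it was 0, where the 4 genes with one class cannot move. Because the classes are counted over unequal numbers of own bases, a share compares a gene with itself and not with another gene.

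**Figure D4:**
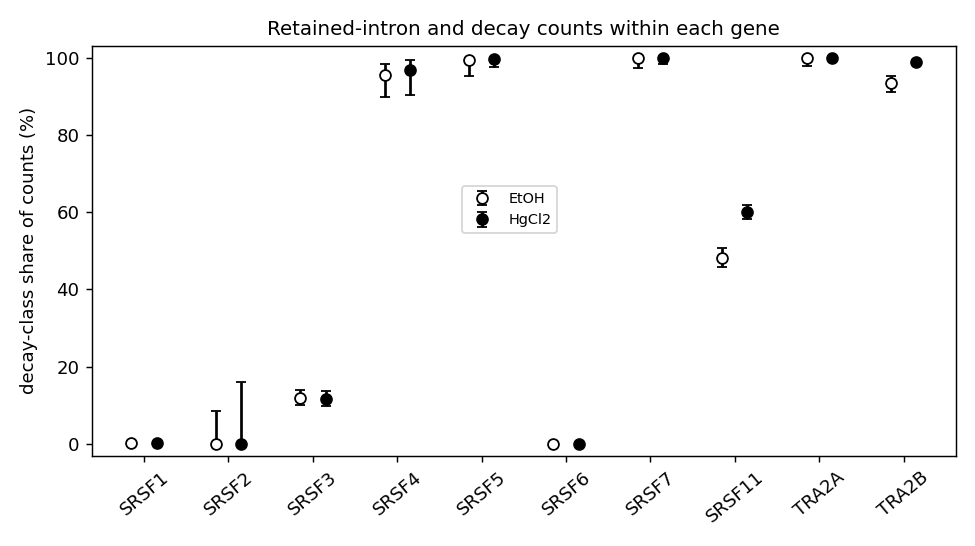
Decay-class share of the coding and decay-class counts of each gene, in percent, in EtOH (open) and HgCl2 (filled), with exact 95% binomial intervals for counting error. SRSF11 moves from 48.1% to 60.1% and TRA2B from 93.4% to 98.9%, while SRSF3 stays near 11.9%.

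Retained introns were also split by position, a grouping made after the values were seen and given with no test. Of the retained-intron transcripts with at least 30 counts in one group and bases of their own, 7 have them in an intron that also holds a decay-only exon, in SRSF3, SRSF4, SRSF7, SRSF11, TRA2A and TRA2B. Their log2 ratios ran from -0.38 to 1.32. The other 5 lie in SRSF5, TRA2A and TRA2B. Of these, SRSF5-218, TRA2A-207 and TRA2B-206 reached 30 counts in HgCl2 alone and so had to differ, and no count or median over the 5 is given. SRSF5-208 and TRA2B-208, which reached 30 in both groups, had log2 ratios of 0.80 and 1.34.

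Genes that act on or beside the SR proteins were taken from 4 lists. Of 11 transcripts of the SR protein kinases and import receptors that passed the filter, 4 were at least 2-fold higher and 2 lower, beside 16.9% and 22.1% of all transcripts. Where the mean count reached 30, 2 of 4 were higher and 0 lower, beside 15.5% and 9.64% of all transcripts at that level. Of these 2, CLK1-203 reached that level through HgCl2 alone and so had to be higher. The kinase CLK1, which phosphorylates SR proteins in the nucleus, had 6.5 mean counts in EtOH and 74.0 in HgCl2 on its coding transcript CLK1-203, a log2 ratio of 3.65, over 77 bases of its own. Its retained-intron transcript CLK1-210 had 49.0 and 121, with 1.45 (0.96 to 1.96). The retained-intron transcript SRPK1-207, of the cytoplasmic SR protein kinase SRPK1, had 8.5 and 49.0, with 2.67 (1.61 to 3.92). Of 19 transcripts of nonsense-mediated decay factors 1 was higher and 3 were lower, beside the same 16.9% and 22.1%. Among those whose mean count reached 30, 0 of 8 were higher and 1 was lower, beside 15.5% and 9.64%. Of the lower ones, SMG5-201, of an adaptor in the last steps of decay, had 99.0 and 38.5, with -1.22 (-1.80 to -0.67), and SMG9-201, of a partner of the kinase SMG1, had 37.0 and 13.5, with -1.31 (-2.33 to -0.38). Of 6 transcripts of the exon junction complex, which marks spliced junctions, 1 was higher and 0 lower, beside 16.9% and 22.1%. It is CASC3-210, with 1.0 and 30.5 counts, 11.2-fold higher with EtOH set to 3 counts (log2 interval 2.49 to 10.4).

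Of 43 transcripts of other SR and SR-related proteins, 5 were at least 2-fold higher and 9 lower, shares near the 16.9% and 22.1% of all transcripts. Where the mean count reached 30, 3 of 28 were higher and 3 lower, beside 15.5% and 9.64% of all transcripts at that level. The higher ones include the retained-intron transcripts SON-214 (33.5 and 84.5), SON-217 (80.5 and 179.5) and LUC7L2-205 (45.0 and 119.5), with log2 ratios of 1.48, 1.30 and 1.55. LUC7L3-221 and SRRM1-213 went from 2.5 to 42.5 and from 1.5 to 34.0 mean counts. With EtOH set to 3 counts they were 15.6-fold and 12.5-fold higher, with log2 intervals of 2.46 to 6.87 and 2.44 to 8.49. Retained-intron transcripts were also among the lower ones. SRSF9-203 had 72.5 and 13.5, with a log2 ratio of -2.28 (-3.24 to -1.43), ACIN1-207 had 35.5 and 8.5, with -1.92, and LUC7L-217 had 110 and 48.5, with -1.04. SRSF10-212 (43.0 and 17.0) and U2AF1-203 (36.0 and 14.0) were lower as well, with -1.20 and -1.22.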

How the data were processed

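The deposited raw counts per transcript and FPKM values of the 4 columns were used. The authors trimmed reads with Trim Galore, aligned them with STAR 2.5.4b to GRCh38 and counted them per transcript with Rsubread. The authors deposited these counts without normalization, and the FPKM values, which they made with DESeq2 1.26.0. The paper also names limma and edgeR 3.28.1. Counting options, including strand, are not given in the sources used here. A read shared by overlapping transcripts may not have been counted, which bears on every value per transcript.

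Classes, coordinates and sequences come from GENCODE 44 and GRCh38. The paper names an Ensembl annotation of another release for its alignment. The bases a transcript has of its own were found in GENCODE 44 and may differ from those in the annotation that was counted. Of 227368 identifiers 223558 were found. The members and gene lists were chosen with earlier results of these data known. Ratios of mean counts used TMM factors of edgeR 4.0.16 (R 4.3.3) over the 17547 transcripts whose mean FPKM passed 1 in either group. With 1 sample a group no test was made, and transcripts were counted at 2-fold, with a floor of 3 counts. Intervals of ratios came from R, those of shares and odds ratios from scipy 1.17.1, and tables and figures from pandas 2.3.3 and matplotlib 3.10.9. The ratio step was tested on simulated data.

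Transcripts named are the coding one with most counts in each gene and every retained-intron or decay transcript with a mean of at least 30 counts in one group. SRSF4-201 and SRSF5-203, the most counted coding transcripts of their genes, did not pass the FPKM filter. They were not followed under the alternatives. List members were named where 2-fold different with at least 30 counts in one group. Other named transcripts of the 10 genes were chosen after their values were seen. One marker and one exon sequence are not reported here. Alternatives changed the scaling, filter, tool (DESeq2 1.42.0, limma 3.58.1 on log2 FPKM), pseudocount, replicate block and definition of the share, and left out each column in turn.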

Additional observations from a re-analysis of the deposited data

How the results depend on the processing

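Of the 19 transcripts named by rule that passed the filter, all but SRSF1-201, SRSF3-202 and SRSF3-207 kept the sign of their log2 ratio under every alternative run. These 3 were below 0 under 1 setting each, at -0.02, -0.04 and -0.04. TRA2B-204 was at -0.77 with limma on log2(FPKM + 1), TRA2B-214 was at 0.91 where every column needed 10 counts, and SRSF7-211 and SRSF2-203 were past 2-fold in 3 and 1 of 14 alternatives. The median log2 ratio of all transcripts whose mean count reached 30 was 0.21 on the TMM scale, 0.25 with median-ratio factors, 0.16 with total counts, 0.35 with no filter and 0.03 where every column needed 10 counts, and the members move with it. Where every column needed 10 counts, 7 of 22 transcripts were at least 2-fold higher in place of 12. SRSF5-207, TRA2A-207, TRA2B-206 and SRSF11-208 were left out by that filter, while TRA2B-214 stayed in and fell under 2-fold as the scale factor between the groups was recomputed over the transcripts kept. Further, limma on log2(FPKM + 1) gave 1 lower in place of 3. The share over all transcripts is not given under any alternative. Leaving out each column in turn gave 12 to 13 higher, 3 to 3 lower, 4 to 5 genes with a higher decay-class share and a median change of 0 to 0.0482 points. As the columns of a group differ by less than counting noise, leaving one out could hardly change these values. Nonsense-mediated decay alone gave 0 genes with a higher share, and transcripts with at least 150 own bases in a row gave 2 of 9. Counted over all transcripts of the gene or per own base, the share was higher in 4 and 3 genes. The counted coding transcripts of SRSF11 have no base of their own. With 150 own bases in a row or per own base, its share therefore cannot move, and its rise is lost.

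The replicate numbers are shared by the groups, and the correlation of same-numbered deviations was 0.0192 with 2 pairs. This cannot decide whether the columns are paired, because the columns of a group differ by less than counting noise. An edgeR fit with a replicate block gave 12 transcripts at least 2-fold higher and 3 lower, as without the block.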
